A study of Mus musculus with 20 samples.

Results

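The 35 genes described here are imprinted genes of the mouse, taken from a list of symbols and grouped into 17 domains. All 35 were found among the 22829 gene names of unique spelling in the RNA tables. The cells were mouse embryonic fibroblasts (MEFs), connective tissue cells grown from embryos, of C57BL/6 background, at passages 10 to 15, proliferating and untreated. Wild-type (WT) cells were compared with Pml-null (KO) cells, which carry a knockout of the gene for PML, the protein that builds PML nuclear bodies. RNA was given as FPKM (fragments scaled to transcript length and to the mapped fragments) in 4 tables: 1 table per genotype pooled by the authors from 3 numbered replicates, and 1 table per genotype from an unnumbered sample. Chromatin immunoprecipitation (ChIP) was given as lists of called regions from 12 libraries, 1 per target and genotype, on mm10. The antibodies were against total H3, the heterochromatin mark H3K9me3, the Polycomb mark H3K27me3, PML, and the Flag or HA tag of H3.3, a histone variant deposited outside replication. Cells for H3.3 ChIP had been transfected with the tagged histone by nucleofection, whereas RNA came from untransfected cells. The labels do not give the deleted part of Pml, the number of embryos behind each culture, or which RNA cultures match the ChIP cells. Each genotype gives 1 value per table or library, so differences below have no replicate error and could not be tested.

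An imprinted gene is transcribed mainly from the allele of 1 parent. The parental choice is carried by a differentially methylated region, most often one whose DNA methylation is set in the egg. On the methylated allele the zinc finger protein ZFP57 binds and recruits TRIM28 and the methyltransferase SETDB1, which places H3K9me3. The other allele is usually an active promoter, where H3.3 is deposited, and H3.3 is also deposited into heterochromatin by the ATRX and DAXX pair. Repressed genes within imprinted domains can carry H3K27me3, the mark of Polycomb complexes. Many imprinted genes act on fetal growth and are highly expressed in fetal connective tissue. Neither the FPKM tables nor the region lists separate the parental alleles, so a region with 2 marks may carry them on different alleles.

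The targeted gene, Pml, read 15.0 FPKM (WT) against 10.2 (KO) in the numbered tables, and 7.62 against 4.22 in the unnumbered tables, which checks the labels only weakly because the deleted part is not given. The summed FPKM of a table ranged from 417175 to 964437, and how the tables were scaled to each other is not given. Levels are best read within a table, and every difference between tables below carries this limit. Over all genes with at least 1 FPKM in either genotype, the median KO minus WT of log2(FPKM + 1) was 0.06 (numbered) and 0.01 (unnumbered). Fibroblast markers had summed levels from 4682 to 10574 FPKM in the 4 tables, but some were nearly missing from the numbered tables. Thy1 was 0.141 FPKM (WT) and 0.100 (KO) there, and 210 and 120 in the unnumbered tables. Fap was also under 1 FPKM in both numbered tables, and Lum in the numbered KO table. Of the fibroblast markers with at least 1 FPKM in either genotype, 5 of 10 (numbered) and 5 of 12 (unnumbered) were at least 2-fold lower in KO. The shares of all genes were 15.7% and 3.85%. Higher in KO was 1 in each pair, Pdgfra (numbered) and S100a4 (unnumbered), beside 6.47% and 1.73%, and each was lower in the other pair. Macrophage markers summed to 2.92 FPKM (WT) and 3.97 (KO) in the numbered tables and to 200 (WT) and 13.6 (KO) in the unnumbered tables, where 11 of 12 markers were at least 2-fold lower in KO. Tyrobp, C1qa, C1qb and C1qc were listed at 0 in both numbered tables. Of the 3 muscle markers counted in each pair, 1 was at least 2-fold higher in KO and 2 were lower. Des was the higher gene in the numbered pair (2.70 in WT and 57.1 in KO) and Acta1 in the unnumbered pair (10.4 and 43.8). Xist was 19.5 FPKM in WT and 0.0517 in KO of the numbered tables, and the Y-linked Ddx3y was 0.0384 and 7.67, so genotype and sex cannot be told apart in that pair. Both unnumbered tables held RNA of both genes, with Xist at 5.89 (WT) and 8.25 (KO) and Ddx3y at 21.7 and 11.4. The Y-linked Eif2s3y (21.7 and 10.1) and Kdm5d (4.63 and 1.59) were at least 2-fold lower in KO there, and Uty was 4.96 and 2.68. Genotype and the mix of sexes cannot be told apart in that pair either. The part of these differences in the results below was not tested. In such bulk samples, fewer cells of a type and less RNA per cell cannot be told apart.

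Imprinted genes past 2-fold were mostly higher in KO in the numbered tables and all lower in KO in the unnumbered tables. Differences are KO minus WT of log2(FPKM + 1), a scale that understates the change of low genes, and a gene was counted when it reached 1 FPKM in either genotype. In the numbered pair, 23 of the 35 genes reached this level. Of these, 5 were at least 2-fold higher in KO (Igf2, Dlk1, Igf2r, Impact and Slc38a4), beside 6.47% of all 11205 genes counted. Lower by at least 2-fold were Slc22a18 and the line shared by Snrpn and Snurf, 2 of 23, beside 15.7% of all genes. The median difference was 0.05 for the imprinted genes and 0.06 for all genes. In the unnumbered pair, 28 of the 35 genes were counted and 0 were higher, beside 1.73% of all 11838 genes. At least 2-fold lower were 7 of 28 (Cdkn1c, Dlk1, Peg3, Zim1, Mest, Airn and Plagl1), beside 3.85% of all genes. Their median difference was -0.33, against 0.01 for all genes. Of the 23 genes counted in both pairs, 0 were higher in both and 0 were lower in both, and Dlk1 passed 2-fold in opposite directions.

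**Figure D1:**
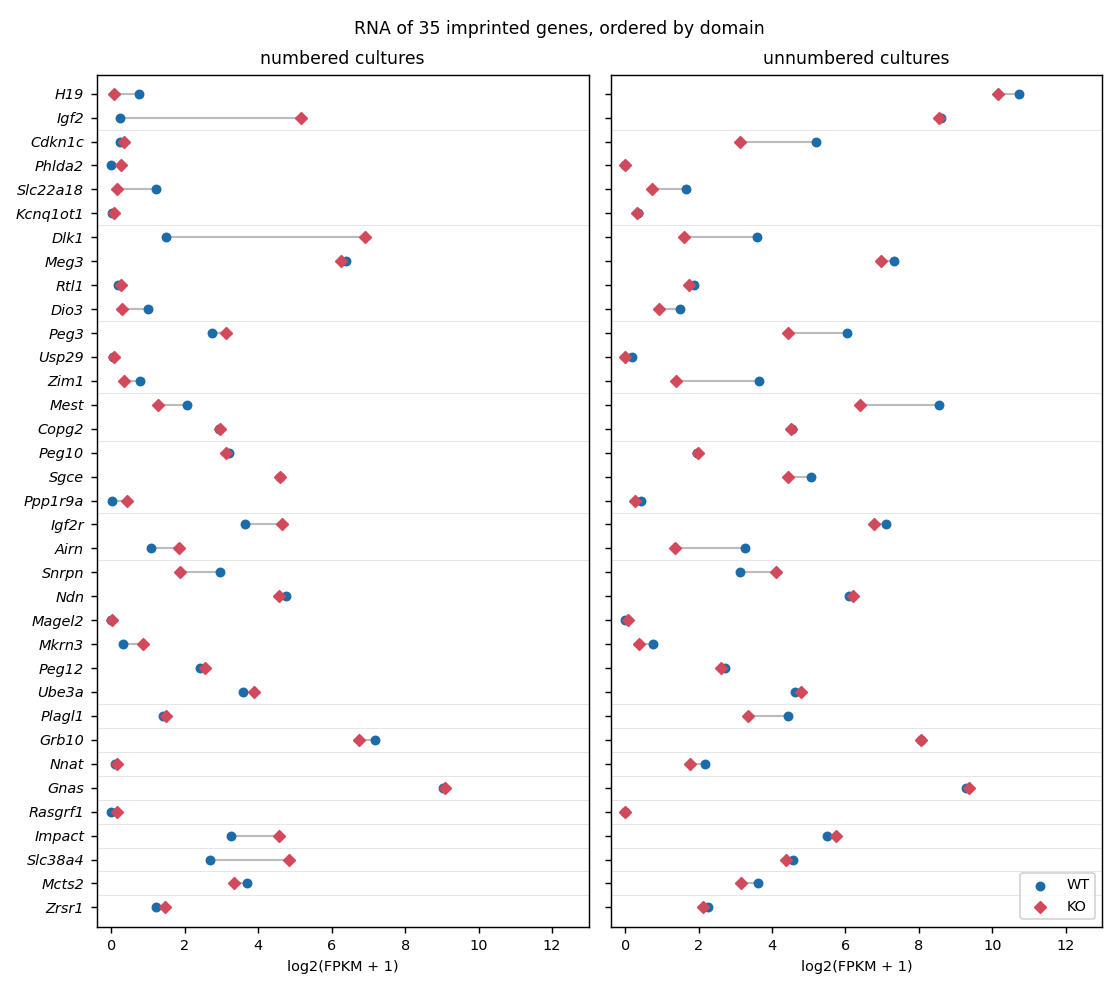
Level of each of the 35 genes as log2(FPKM + 1) on the horizontal axis, in the numbered (left) and unnumbered (right) tables, with WT as blue circles and KO as red diamonds and pale lines between domains. Each point is 1 table without replicates. H19, Igf2 and Cdkn1c lie to the right in the unnumbered tables and below 1 FPKM in the numbered WT table, where Gnas and Grb10 are already high.

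The H19 and Igf2 domain showed the widest range of levels. H19, a maternally expressed noncoding RNA, was 0.673 FPKM in WT and 0.0541 in KO of the numbered tables, and 1708 and 1142 in the unnumbered tables. Igf2, the paternally expressed fetal growth factor, was 0.183 FPKM in WT and 35.1 in KO of the numbered tables, a difference of 4.93. In the unnumbered tables Igf2 was 390 in WT and 372 in KO, a difference of -0.07. H19 thus stayed under 1 FPKM in the numbered KO table that held Igf2 RNA. The H19 to Igf2 ratio was 3.68 in WT and 0.0015 in KO of the numbered tables, and 4.38 and 3.07 in the unnumbered tables. In the numbered tables both genes in WT, and H19 in KO, were under 1 FPKM, so these 2 ratios rest on values near the floor.

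In the domain named for Kcnq1ot1, Cdkn1c and Slc22a18 each passed 2-fold in 1 pair. Cdkn1c, a maternally expressed inhibitor of cyclin-dependent kinases, was 36.0 FPKM in WT and 7.79 in KO of the unnumbered tables, a difference of -2.07, and 0.171 and 0.267 in the numbered tables. The solute carrier gene Slc22a18 was 1.31 in WT and 0.111 in KO of the numbered tables, a difference of -1.05, and 2.16 and 0.661 in the unnumbered tables, a difference of -0.93. Both pairs placed Slc22a18 lower in KO, but the second value misses the 2-fold mark. Kcnq1ot1, the long paternally expressed antisense RNA of the domain, did not exceed 0.273 FPKM in any table. Phlda2, a placental growth regulator, was listed at 0 in 3 tables and at 0.204 FPKM in the numbered KO table.

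Dlk1 was higher in KO in the numbered tables and lower in KO in the unnumbered tables. Dlk1, a paternally expressed Notch-like transmembrane protein of fetal mesenchyme, was 1.82 FPKM in WT and 119 in KO of the numbered tables, a difference of 5.42. The unnumbered tables held 11.1 in WT and 2.03 in KO, a difference of -1.99. Meg3, the maternally expressed noncoding RNA of the same domain, was 82.7 in WT and 74.9 in KO of the numbered tables and 158 and 125 in the unnumbered tables. The Meg3 line of the tables also names 2 microRNA genes within it, and Meg3 overlaps Rtl1. Meg3 exceeded Dlk1 in 3 tables, and in the numbered KO table the Meg3 to Dlk1 ratio was 0.627. Rtl1, a retrotransposon-derived gene read on the paternal allele, was 0.141 and 0.198 FPKM in the numbered tables and 2.70 and 2.35 in the unnumbered tables. Dio3, the deiodinase that inactivates thyroid hormone, was 1.01 in WT and 0.211 in KO, then 1.81 and 0.902, differences of -0.73 and -0.57.

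Genes of the Peg3 and Mest domains were lower in KO of the unnumbered tables. Peg3, a zinc finger protein, was 64.5 FPKM in WT and 20.5 in KO there, a difference of -1.61, and 5.70 and 7.71 in the numbered tables, a difference of 0.38. Its maternally expressed neighbour Zim1 was 11.5 and 1.61 in the unnumbered tables, a difference of -2.25, and 0.713 and 0.277 in the numbered tables. Usp29, which starts beside Peg3 on the other strand, did not exceed 0.127 FPKM. The hydrolase gene Mest, expressed in mesoderm from the paternal allele, was 372 in WT and 83.4 in KO of the unnumbered tables, a difference of -2.14. In the numbered tables Mest was 3.20 and 1.41. Copg2, a coat protein gene that overlaps the end of Mest, differed by -0.05 and 0.03 (unnumbered and numbered tables).

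The receptor Igf2r, which clears the IGF2 protein and is maternally expressed, and the paternal antisense RNA Airn start within 1 domain. Igf2r was 11.5 FPKM in WT and 24.2 in KO of the numbered tables, a difference of 1.02 that was 0.96 after centring on the median of all genes. In the unnumbered tables Igf2r was 136 and 109. Airn was 1.10 in WT and 2.59 in KO of the numbered tables, and 8.55 and 1.58 in the unnumbered tables, a difference of -1.89. The Igf2r to Airn ratio was 10.4 and 9.36 in the numbered tables and 15.9 and 68.8 in the unnumbered tables (WT and KO). Strand use in counting is not given in the sources used here, so reads of Airn and Igf2r where they overlap cannot be told apart. The same holds for Kcnq1ot1 with Kcnq1, Mcts2 with H13, Nnat with Blcap, Zrsr1 with Commd1, Plagl1 with Hymai, Ube3a with Snhg14 and Mest with Copg2.

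Plagl1, a zinc finger transcription factor of fetal growth, was 20.6 FPKM in WT and 9.24 in KO of the unnumbered tables, a difference of -1.08, and 1.66 and 1.79 in the numbered tables. Slc38a4, an amino acid transporter, was 5.49 in WT and 27.7 in KO of the numbered tables, a difference of 2.15, and 22.6 and 19.9 in the unnumbered tables. Impact, a regulator of translation under amino acid shortage, was 8.49 and 22.6 in the numbered tables, a difference of 1.31, and 44.3 and 52.4 in the unnumbered tables. These 3 genes each passed 2-fold in 1 pair only. The line of Snrpn and Snurf, genes of the Prader-Willi domain, was 6.78 in WT and 2.67 in KO of the numbered tables, a difference of -1.09 that was -0.90 after upper-quartile scaling. In the unnumbered tables it was 7.74 and 16.3, a difference of 0.99.

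Levels close between genotypes were seen for Gnas, Grb10, Ndn, Ube3a and Peg12. Gnas, which encodes the stimulatory G protein alpha subunit, was 524 and 544 FPKM in the numbered tables and 624 and 655 in the unnumbered tables. Grb10, an adaptor that restrains insulin signalling, was 145 and 107, then 267 in both unnumbered tables. Ndn, a growth suppressor of the Prader-Willi domain, was 26.0 and 22.5, then 67.4 and 73.1. The ubiquitin ligase gene Ube3a was 11.1 and 13.7, then 23.8 and 26.5. Peg12 was 4.31 and 4.90, then 5.60 and 5.11. Differences between genotypes for these 5 genes lay between -0.44 and 0.29 in both pairs. Peg10, a retrotransposon-derived gene, was 8.16 and 7.63 in the numbered tables and 2.86 and 2.94 in the unnumbered tables, and its neighbour Sgce, a sarcoglycan, was 23.2 in both numbered tables and 32.2 and 20.7 in the unnumbered tables. Mcts2, a retrogene, differed by -0.38 in the numbered tables, where KO was 9.03, and was 11.2 and 7.93 in the unnumbered tables. Zrsr1, a splicing factor retrogene, was 1.30 and 1.74, then 3.74 and 3.37. Nnat, known from developing brain, was 0.0597 and 0.106, then 3.50 and 2.42. Magel2, Rasgrf1, Mkrn3 and Ppp1r9a stayed under 1 FPKM in all 4 tables.

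**Figure D2:**
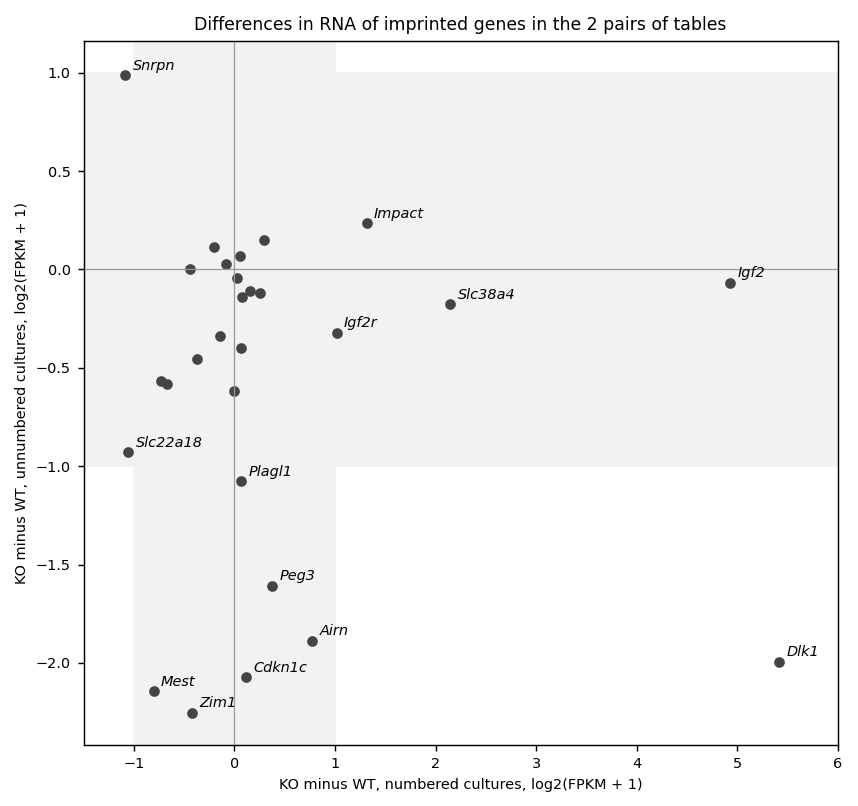
KO minus WT difference of log2(FPKM + 1) in the numbered tables (horizontal) against the unnumbered tables (vertical) for genes with at least 1 FPKM in either genotype of either pair, with genes past 2-fold in a pair named and the grey bands marking differences under 2-fold. Igf2 and Slc38a4 lie far right near the horizontal axis, Mest, Zim1, Cdkn1c, Airn and Peg3 lie low near the vertical one, and Dlk1 (5.42 and -1.99) stands apart at the lower right.

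More of the 35 genes passed 2-fold between the numbered and unnumbered cultures than between genotypes. How the tables of these cultures were scaled to each other is not given. In WT, 18 of 28 imprinted genes were at least 2-fold higher in the unnumbered than in the numbered table and 1, Peg10, was lower, beside 20.4% and 16.1% of all genes. In KO, 15 of 26 were higher and 2, Dlk1 and Peg10, were lower, beside 18.4% and 10.5%. In both genotypes 13 were higher. The median difference between cultures was 1.66 in WT and 1.24 in KO, against 0.20 and 0.22 for all genes. H19, Igf2, Cdkn1c and Mest had WT ratios of 2537, 2135, 211 and 116 between the tables. The 35 genes together held 0.0927% (WT) and 0.255% (KO) of summed FPKM in the numbered tables, and 0.775% and 0.600% in the unnumbered tables. Macrophage and fibroblast markers also differed between these sets of cultures, by medians of 3.58 and 1.36 in WT and 0.48 and 1.16 in KO, and their part was not tested.

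Among other imprinted genes, 41 of 43 on the list were found. In the numbered pair, 24 were counted, with 6 at least 2-fold higher in KO and 4 lower, beside 6.47% and 15.7% of all genes. The largest differences were those of Ano1, a chloride channel (-2.59), Pon3, a lactonase (2.57), and Dlx5, a homeobox gene (-2.29). Htr2a, a serotonin receptor (2.09), the noncoding RNA Peg13 (1.98) and Tssc4, a neighbour of Kcnq1 (-1.94), followed. In the unnumbered pair, 29 were counted, 2 were higher, Tnfrsf23 (1.25) and Ano1 (1.18), and 0 were lower, where the background shares were 1.73% and 3.85%. Rian, a noncoding RNA downstream of Meg3, was 37.1 FPKM in WT and 96.2 in KO of the numbered tables and 205 and 214 in the unnumbered tables.

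Of the genes of the machinery that maintains imprints, 0 of 36 counted passed 2-fold in the unnumbered tables. Of all genes, 1.73% were higher and 3.85% lower in that pair. In the numbered tables the H3K9 methyltransferase genes Setdb1 (1.22) and Suv39h2 (1.04) were higher in KO, and Mbd3, of the NuRD complex, was 522 FPKM in WT and 73.0 in KO (-2.82). Zfp57 ranged from 7.47 to 22.7 FPKM over the 4 tables. Atrx, the H3.3 chaperone subunit, ranged from 9.21 to 18.2, and Daxx from 10.5 to 14.4.

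The insulin-like growth factor pathway was described beside Igf2 and Igf2r. In the unnumbered pair, 5 of 16 counted genes were at least 2-fold lower in KO, beside 3.85% of all genes, and 1, Igfbp7 (1.03), was higher, beside 1.73%. Igf1, the sister ligand of Igf2, was 30.7 FPKM in WT and 7.96 in KO (-1.82), and the binding protein genes Igfbp4 (-1.65), Igfbp6 (-1.61), Igfbp5 (-1.26) and Igfbp3 (-1.12) were the other 4. Igf1 is also made by macrophages, whose markers were lower in the same KO table, and that part was not tested. In the numbered pair, 2 of 14 were higher, Igfbp2 (2.17) and Igfbp4 (1.74), beside 6.47% of all genes. Lower were 3 of 14, Igfbp6 (-2.30), Igfbp3 (-2.03) and the receptor substrate Irs1 (-1.13), beside 15.7%. Igfbp3 and Igfbp6 were lower in KO in both pairs, and Igfbp4 differed in direction.

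H3K9me3 and H3.3-Flag were called in the same window at several imprinted gene starts. A start counted as covered when called regions filled at least 0.5 of the window of 1 kb to either side, and 29 of the 35 genes had a listed start, of 26794 genes in all. In WT both marks covered 1 window of 8 of the 29 genes (Airn, Grb10, Igf2r, Kcnq1ot1, Mcts2, Nnat, Plagl1 and Zrsr1), beside 1.17% of all genes. In KO, 5 did (Airn, Grb10, Igf2r, Nnat and Zrsr1), beside 2.71%. The windows of Kcnq1ot1, Mcts2 and Nnat also lay in H3 regions of 1 or both genotypes, and without starts in H3 regions the WT count was 5 of 19 genes beside 1.27%. Airn and Igf2r share 1 long H3.3-Flag region, so the 8 genes lie in 7 such regions. Egg-methylated starts were assigned by gene, not from coordinates of methylated regions, and Gnas and Grb10 were placed outside this class. Of the 10 genes so assigned with a listed start, 6 carried both marks in WT and 3 in KO. For 3 of the 8 genes the WT H3K9me3 signal was low (1.70 for Plagl1, 2.19 for Igf2r and 2.50 for Kcnq1ot1), and with a signal minimum of 3 the WT count was 5. The signal is the authors' own value for a region, and its scale differed between chromosomes 1 to 9 and 10 to 19.

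The 250 bases before the start are shown for 6 imprinted genes, the first 3 (of which Peg3 had no H3K9me3 call in WT) because H3.3-Flag was called there only in WT, the last 3 because both marks were called there in both genotypes. Capitals mark the core that ZFP57 recognises when methylated, TGCCGC, or its reverse complement GCGGCA, which a search of both strands found in Plagl1 alone of the 6. The sequences run 5′ to 3′ on the gene's strand and are from RefSeq for GRCm38.p6, the assembly of mm10.
Kcnq1ot1 (chr7:143296548-143296797, minus strand): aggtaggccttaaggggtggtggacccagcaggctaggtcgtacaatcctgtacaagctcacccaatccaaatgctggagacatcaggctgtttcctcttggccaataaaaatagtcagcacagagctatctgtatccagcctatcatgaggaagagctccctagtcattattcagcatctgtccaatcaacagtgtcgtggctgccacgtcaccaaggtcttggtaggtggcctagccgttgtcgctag
Peg3 (chr7:6730420-6730669, minus strand): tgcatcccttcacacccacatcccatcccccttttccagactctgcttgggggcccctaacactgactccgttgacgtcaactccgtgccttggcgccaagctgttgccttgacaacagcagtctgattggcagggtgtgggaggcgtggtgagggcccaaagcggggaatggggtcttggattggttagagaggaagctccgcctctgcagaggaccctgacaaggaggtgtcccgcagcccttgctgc
Plagl1 (chr10:13090582-13090831, plus strand): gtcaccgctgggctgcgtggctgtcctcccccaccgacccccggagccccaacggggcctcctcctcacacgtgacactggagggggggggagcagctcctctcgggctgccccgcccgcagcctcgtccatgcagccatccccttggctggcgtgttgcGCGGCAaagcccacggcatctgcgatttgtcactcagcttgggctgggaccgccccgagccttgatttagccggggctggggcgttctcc
Airn (chr17:12741061-12741310, plus strand): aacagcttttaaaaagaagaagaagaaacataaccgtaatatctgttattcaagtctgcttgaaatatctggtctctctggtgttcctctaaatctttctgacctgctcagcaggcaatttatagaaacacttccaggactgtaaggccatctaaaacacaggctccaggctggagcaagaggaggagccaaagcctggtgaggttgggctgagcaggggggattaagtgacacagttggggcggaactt
Nnat (chr2:157559828-157560077, plus strand): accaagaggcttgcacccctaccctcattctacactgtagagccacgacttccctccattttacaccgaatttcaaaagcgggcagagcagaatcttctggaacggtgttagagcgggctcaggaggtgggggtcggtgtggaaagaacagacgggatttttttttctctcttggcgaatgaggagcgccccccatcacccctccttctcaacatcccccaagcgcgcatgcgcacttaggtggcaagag
Zrsr1 (chr11:22971755-22972004, plus strand): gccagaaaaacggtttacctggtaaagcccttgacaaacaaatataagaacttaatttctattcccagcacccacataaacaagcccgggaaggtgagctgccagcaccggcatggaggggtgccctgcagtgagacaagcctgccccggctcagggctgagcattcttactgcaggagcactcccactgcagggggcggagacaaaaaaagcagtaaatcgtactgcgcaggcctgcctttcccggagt
The motif occurred in this window at 8.73% of all 32619 starts and at 15.6% of the 45 starts of the imprinted genes. Of the starts with at least 10 CpG, 18.3% of all genes' starts and 7 of 23 imprinted starts (30.4%) held it. Of the 15 starts of genes with an egg-methylated start, 4 held it (26.7%). Starts of 1 gene can overlap, as do those of Mest that hold the motif, so these are not independent. These letters describe the window only, which does not hold the whole differentially methylated region.

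**Figure D3:**
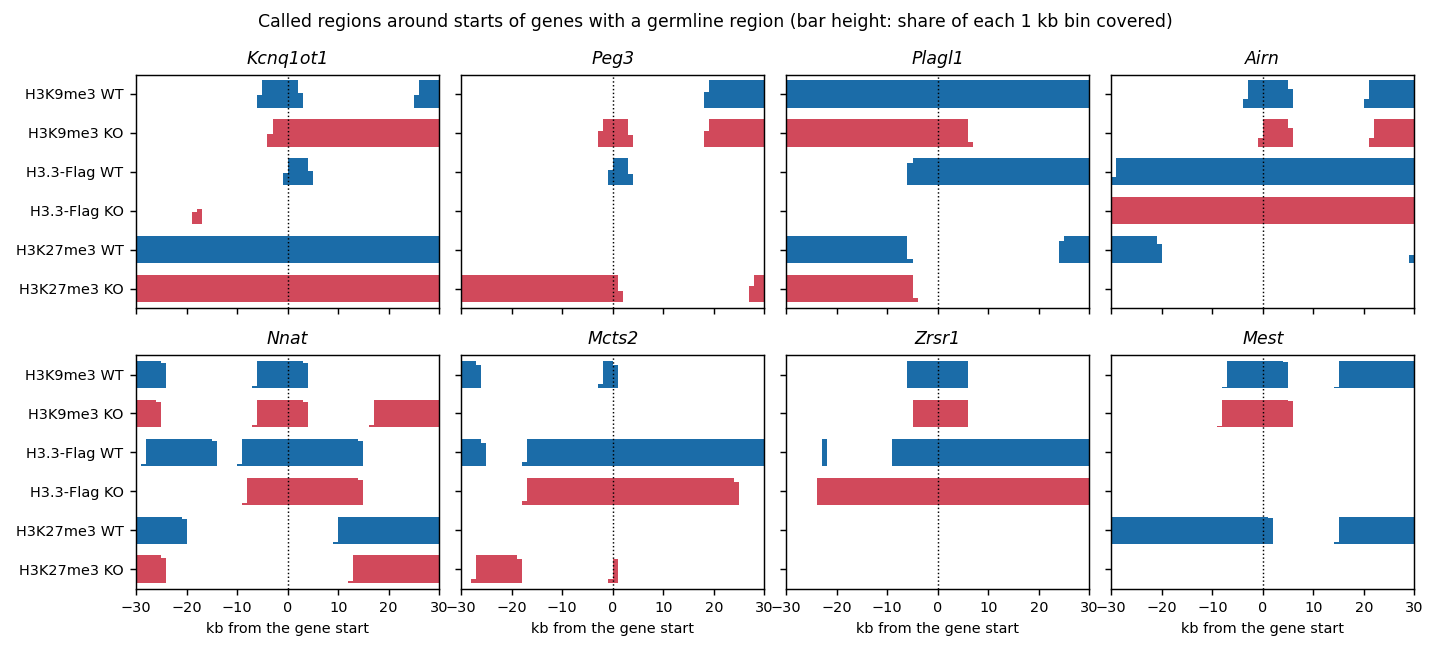
Called regions of H3K9me3, H3.3-Flag and H3K27me3 within 30 kb of the start of 8 genes whose start belongs to an egg-methylated region, with WT in blue and KO in red, the dotted line at the start, and bar height as the share of each 1 kb bin covered. For Mest the start farthest downstream is shown. H3.3-Flag bars at Kcnq1ot1, Peg3 and Plagl1 starts are present in WT and missing in KO, whereas Airn, Nnat, Mcts2 and Zrsr1 keep theirs.

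H3.3-Flag was called over 13 of 29 starts in WT, beside 34.1% of all genes, and over 9 in KO, beside 29.8%. Called in WT alone were 4 (Kcnq1ot1, Peg3, Plagl1 and Usp29), beside 7.74% of all genes, and 0 were called in KO alone, beside 3.41%. All 4 belong to the 10 genes assigned an egg-methylated start, of which 8 carried H3.3-Flag in WT and 4 in KO. Gnas and Grb10, outside that class as assigned, carried H3.3-Flag in both genotypes. Peg3 and Usp29 have overlapping windows and share 1 region, chr7:6727001-6731000, with a signal of 41.3 in WT. At Kcnq1ot1 the WT region was chr7:143292001-143297000 with a signal of 20.0, and at Plagl1 it was chr10:13085001-13135000 with a signal of 22.0. Where regions were present in both genotypes the KO signal was lower, as at Airn (36.7 in WT and 14.7 in KO), Nnat (42.8 and 16.7) and Zrsr1 (33.6 and 10.3). Signals of different libraries are on scales whose relation is not given, so these values show no change by themselves. Genome-wide H3.3-Flag cover was 286 Mb in WT and 306 Mb in KO.

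H3.3-HA, the second tag, was called over 5 starts in WT (Airn, Gnas, Grb10, Mcts2 and Nnat), beside 16.8% of all genes, and over 8 in KO, beside 26.0%. All 5 WT starts also carried H3.3-Flag. Igf2r, Meg3 and Mest were called in KO alone, in long and faint regions of 912 kb with a signal of 0.398, 90 kb with a signal of 0.34 and 75 kb with a signal of 0.28. With a signal minimum of 1 the KO count was 2 against 5 in WT, so the order of the genotypes turned. Kcnq1ot1, Peg3, Plagl1 and Usp29 carried no H3.3-HA region in either genotype, so the WT calls there rest on the Flag library alone. Genome-wide H3.3-HA cover was 73.5 Mb in WT and 375 Mb in KO, whereas H3.3-Flag covered 286 Mb in WT, so a missing HA call in WT says little.

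H3K9me3 was called over 14 of 29 starts in WT, beside 21.2% of all genes, and over 15 in KO, beside 27.3%. With a signal minimum of 3 the counts were 8 in WT and 15 in KO. Both genotypes shared 11 genes (Airn, Gnas, Grb10, Igf2r, Kcnq1ot1, Meg3, Mest, Nnat, Plagl1, Zim1 and Zrsr1), beside 13.2% of all genes. Several of these regions were short and alike in both genotypes. At Nnat the region was chr2:157554001-157564000 in both, with signals of 20.6 (WT) and 40.2 (KO). At Gnas it was chr2:174281001-174301000 in both, over the most upstream of 4 listed starts, with signals of 13.5 and 20.0. At Mest it was 12 kb long in WT and 14 kb in KO, at Meg3 23 kb and 24 kb, and at Zrsr1 12 kb and 11 kb. Snrpn was called in WT at 2 upstream starts only, and its start at chr7:60005199 was not covered by any mark shown.

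Called for H3K9me3 in WT alone were 3 starts, Dio3 (signal 0), Snrpn (0.838 and 2.52 at its 2 starts) and Mcts2, beside 7.97% of all genes, and in KO alone 4, Igf2, Peg3, Slc38a4 and Usp29, beside 14.1%. At the shared start of Peg3 and Usp29 the KO library held H3K9me3 over chr7:6727001-6733000 with a signal of 20.3, and WT held none. This window is the one where H3.3-Flag was called in WT alone. Mcts2 showed the reverse order for H3K9me3, with a WT region of 3 kb and a signal of 9.67 and none in KO, while H3.3-Flag was called in both. The Igf2 region in KO was 107 kb long with a signal of 5.73, in the genotype where Igf2 RNA was 35.1 FPKM (numbered) and 372 FPKM (unnumbered). H3 regions covered the Igf2 and Slc38a4 starts in both genotypes.

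**Figure D4:**
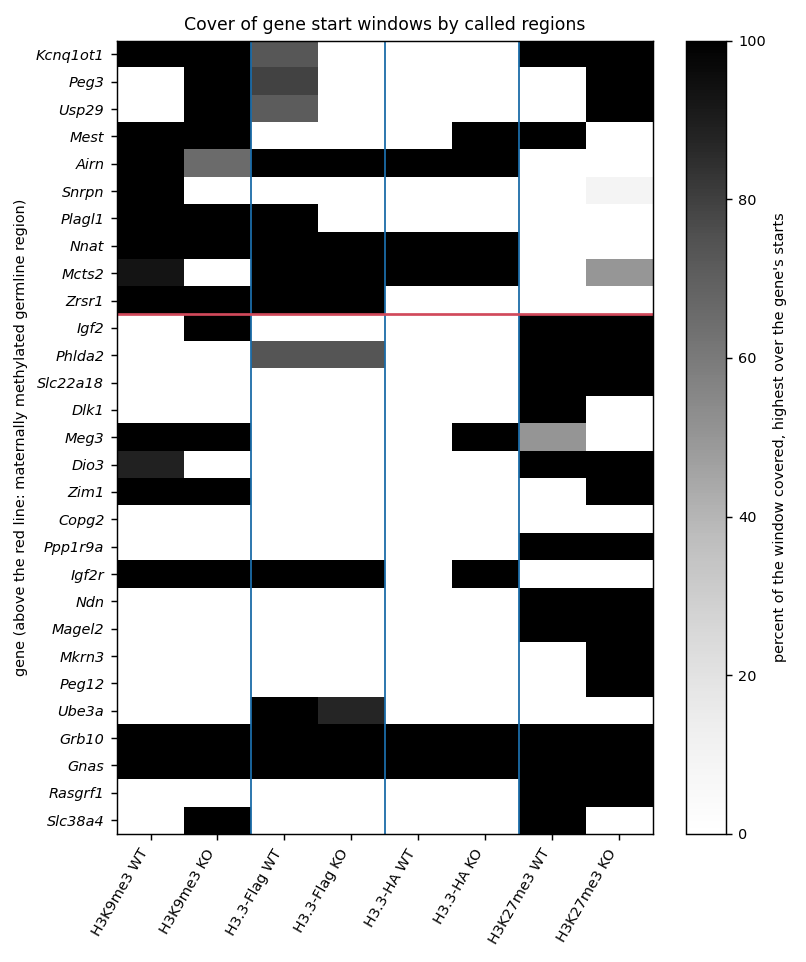
Percent of the window around each gene start that called regions cover, from white (0) to black (100), for the 29 genes with a listed start, taking the highest value over a gene's starts, so 2 marks of a gene with several starts may lie in different windows. Columns are the 4 marks in WT and KO, and genes assigned to the class of egg-methylated starts stand above the red line. H3.3-Flag cells of Kcnq1ot1, Peg3, Usp29 and Plagl1 are filled in WT and white in KO.

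H3K27me3 was called over 15 of 29 starts in WT, beside 40.6% of all genes, and over 16 in KO, beside 36.8%. With a signal minimum of 3 the counts were 14 in WT and 9 in KO, the opposite order. It lay mostly on genes outside the class of egg-methylated starts as assigned, in which 2 of 10 genes were called in WT and 3 in KO. Called in WT alone were Dlk1, Meg3, Mest and Slc38a4, 4 genes beside 8.77%. Called in KO alone were Mkrn3, Peg12, Peg3, Usp29 and Zim1, 5 genes beside 4.90%. The WT region at Dlk1, chr12:109447001-109541000 with a signal of 21.6, ended at the Meg3 start and was absent in KO. In the numbered tables Dlk1 RNA was higher in KO, and in the unnumbered tables it was lower. At Mest a WT region of 45 kb with a signal of 31.3 was absent in KO, while Mest RNA was 372 FPKM in WT and 83.4 in KO of the unnumbered tables. Region and RNA therefore did not go one way across these genes, and which RNA cultures match the ChIP cells is not given. The KO regions at these 5 genes were long and of low signal. They were 566 kb at 2.35 for Mkrn3 and Peg12, 380 kb at 2.62 for Peg3 and Usp29, and 291 kb at 1.64 for Zim1.

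Over whole gene bodies, a change in cover of at least 0.5 of the length was called in few genes for H3K9me3. Igf2 and Peg10 gained it in KO, 2 of 35 genes beside 12.8% of all 49214 genes, and Mcts2 and Plagl1 lost it, beside 9.88%. With a signal minimum of 3 there were 4 gains and 1 loss. Plagl1 went from 76.3% to 15.1% covered and Peg10 from 0 to 100%. H3K27me3 was gained by 7 genes (Mcts2, Mkrn3, Peg10, Peg12, Sgce, Usp29 and Zim1), beside 6.46%, and lost by Dlk1 and Rtl1, beside 7.85%. With a signal minimum of 3 the 7 gains became 3. Both bodies with a loss lay wholly in H3 regions of the KO library and in none of WT, and without bases called in H3, which leaves both bodies out, the losses were 0. H3.3-Flag was lost over Plagl1, from 100% to 0, and gained over Rtl1, from 10.1% to 60.7%, 1 gene in each direction beside 2.37% and 2.79%. Without bases called in H3, which leaves Rtl1 out, the gains were 0. H3.3-HA was gained by 6 genes (Airn, Gnas, Grb10, Meg3, Mest and Rtl1), beside 18.8%, and lost by 0, beside 2.58%, whereas a signal minimum of 3 gave 1 gain and 2 losses. Cover of Impact was 31.4% for H3K9me3 and 10.5% for H3.3-Flag in WT and 0 for both in KO, under this threshold.

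Across domains, taken as the span of the member genes with 25 kb to either side, H3K9me3 cover moved both ways. It was 49.2% in WT and 7.52% in KO for the Dlk1 to Dio3 domain, 50.6% and 19.5% for the Snrpn domain, and 42.1% and 11.6% for the Mest domain. The H19 and Igf2 domain had none in WT and 75.7% in KO, and the Slc38a4 domain 3.56% and 27.9%. H3K27me3 cover of the Dlk1 to Dio3 domain was 64.8% and 22.1%, and that of the Mest domain 49.4% and 10.2%. In the Peg3 and Snrpn domains it was higher in KO, at 40.8% and 92.4%, and at 10.8% and 39.0%. The H19 and Igf2 domain was covered by H3K27me3 in both genotypes, 100% and 91.3%. Genome-wide cover was 841 Mb in WT and 735 Mb in KO for H3K9me3 and 962 Mb and 1018 Mb for H3K27me3. Total H3 regions covered 10.9% (WT) and 71.5% (KO) of the Dlk1 to Dio3 domain, 98.7% and 100% of the H19 and Igf2 domain, and 47.5% and 0 of the Peg3 domain. In the Mest domain they covered 0 in both genotypes. Cover of domains was not recomputed outside H3 regions or with a signal minimum.

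**Figure D5:**
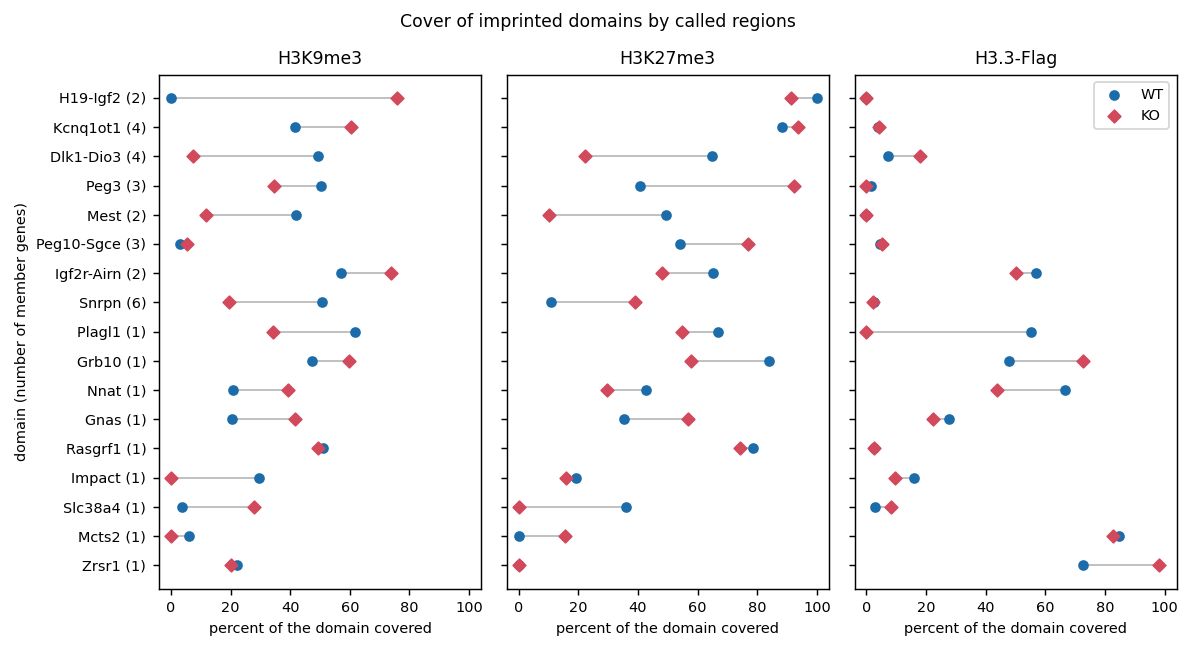
Percent of each of 17 imprinted domains covered by called regions of H3K9me3, H3K27me3 and H3.3-Flag, with WT as blue circles, KO as red diamonds and the number of member genes in parentheses. The longest H3K9me3 lines are the Dlk1 to Dio3 domain, lower in KO (49.2% and 7.52%), and the H19 and Igf2 domain, higher in KO (0 and 75.7%). Total H3 regions, not shown, covered 10.9% (WT) and 71.5% (KO) of the former and 98.7% and 100% of the latter.

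PML regions, which are long domains in WT, touched few imprinted genes. None of the 29 starts was covered in either genotype, beside 12.1% of all genes in WT. Zim1 was the 1 gene with at least 0.5 of its body in a WT PML region, beside 16.0% of all genes. By domain, WT PML regions covered 14.9% of the Snrpn domain and 11.8% of the Peg3 domain, and no other domain. The nearest WT PML region was 5.49 kb from Peg12, 13.9 kb from Peg3 and 19.2 kb from Ube3a. Dlk1 and Igf2 lay 1702 kb and 2081 kb from the nearest one.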

How the data were processed

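The submitters' processing notes name mm10 and the tools Cuffdiff 2.2.1, Cufflinks 2.2.1, TopHat2 2.0.8b and Bowtie 1.0.0. Strand use and the region caller were not given in those sources. The deposited RNA values are the authors' FPKM, pooled over 3 replicates for the numbered pair, and lines that name several genes were read as 1 line. Region lists deposited by the authors held a signal and a score per region for H3.3, H3K9me3 and H3K27me3, and a score for H3 and PML. Depth is unknown, since the files used here give no read totals.

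Differences are on log2(FPKM + 1), with 1 FPKM as the minimum in either genotype. Cover was computed on chromosomes 1 to 19 and X from base 3000000, with starts and sequences from RefSeq for GRCm38.p6. Cover was tested on simulated data. All listed members are named. From the other lists, genes past 2-fold were named, at most the 6 largest per list and pair. Snurf was taken off a list because it shares the line of Snrpn. Members and lists were chosen with earlier results of these data known. Alternatives were another pseudocount, minimum, scaling, signal minimum, window and share, and bases or starts outside H3 regions. Python 3.11.15, numpy 2.4.6, pandas 2.3.3 and matplotlib 3.10.9 were used.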

Additional observations from a re-analysis of the deposited data

Results flagged for a closer look

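Dlk1 differed between KO and WT in opposite directions in the 2 pairs of tables. The difference in log2(FPKM + 1) was 5.42 in the numbered tables and -1.99 in the unnumbered tables, with 1 table per genotype in each pair. Each pair gives 1 value, and the difference between the pairs was not tested. Sex-linked genes and some fibroblast and muscle markers differed between genotypes in both pairs, and macrophage markers in the unnumbered pair. The part of these in the Dlk1 differences was not tested.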

How the results depend on the processing

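No paired analysis was possible because the authors pooled the numbered replicates of each genotype and the tables used here hold no replicate on its own. Of the counts recomputed under each alternative, 75 stayed within 1.5 times the reported value and 23 moved further. No RNA difference of an imprinted gene past 2-fold in the main counts changed sign. Smaller differences were not followed through the alternatives. The order of WT and KO counts turned for H3.3-HA starts (5 and 8, then 5 and 2 with a signal minimum of 1) and for H3K27me3 starts (15 and 16, then 14 and 9 with a minimum of 3), and the balance of H3.3-HA body gains and losses turned from 6 and 0 to 1 and 2. With a pseudocount of 0.1 the numbered difference of Igf2 (6.96) exceeded that of Dlk1 (5.96). The number of genes at least 2-fold lower in the numbered tables was 4 with a pseudocount of 0.1, 1 with a minimum of 5 FPKM and 1 after upper-quartile scaling, which shifts that pair by 0.25. Higher genes in the unnumbered tables numbered 1 with a pseudocount of 0.1. With a signal minimum of 3, the count of starts was 8 for H3K9me3 in WT, 9 for H3K27me3 in KO, 2 for H3.3-HA in KO and 5 for H3K9me3 with H3.3-Flag in WT. H3.3-HA in KO was also 2 with a minimum of 1 or at equal covered length. Without starts in H3 regions, the count of both marks in WT was 5. For gene bodies a signal minimum of 3 gave 4 gains and 1 loss of H3K9me3, 3 gains of H3K27me3, and 1 gain and 2 losses of H3.3-HA. A difference of 0.25 gave 6 losses each of H3K9me3 and H3K27me3 and 2 gains of H3.3-Flag. Outside H3 regions, 23 genes gave 1 gain of H3K9me3, 0 losses of H3K27me3, 0 gains of H3.3-Flag and 3 gains of H3.3-HA. The alternatives for the count of both marks were chosen after seeing the data.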
